A study of Mus musculus with 192 samples.

Results

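The pair SeV+CpGB was compared with SeV alone and with CpGB alone, in 9 RNA sequencing libraries of a study of mouse dendritic cells that holds 64 groups of 3 libraries. The members were chosen by their labels: 3 libraries of cells given both ligands, 3 given SeV and 3 given CpGB. The study tested 7 ligands of pattern recognition receptors singly, in 21 pairs and in triplets. All groups used dendritic cells grown with GM-CSF from the bone marrow of female C57BL/6J mice aged 6 to 8 weeks, plated at 100000 cells a well and exposed for 6 hours. The control group is labelled Ctrl, and 2 further pairs, cGAMP+CpGB and PAM+SeV, served for comparison because each shares 1 ligand with SeV+CpGB. The labels give no ligand doses. Nothing in the labels says that replicates came from separate animals or cultures, so p-values measure a spread between libraries of a group, which may be technical. In the main fit that spread was estimated over all 64 groups together and not from the 9 libraries alone.

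SeV is the usual abbreviation of Sendai virus, an RNA virus, and CpGB that of a class B CpG oligonucleotide, although the labels spell out neither. Viral RNA in the cytosol is detected by RIG-I, which signals through MAVS to the kinases that activate IRF3, and so leads to interferon beta. Unmethylated CpG DNA is detected in endosomes by TLR9, which signals through MyD88 to NF-kB and inflammatory cytokines. Secreted interferon then acts through its receptor on interferon-stimulated genes, many of which carry an interferon-stimulated response element (ISRE) in their promoter. Bone marrow cultures with GM-CSF yield dendritic cells together with macrophage-like cells.

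The pair libraries held 124561 to 158510 UMIs (unique molecular identifiers, each marking 1 original cDNA molecule), the SeV libraries 98864 to 201825, the CpGB libraries 98306 to 212946 and the Ctrl libraries 61823 to 89530. Levels are given as CPM (counts scaled to a common library total), scaled by TMM factors, and all 4720 genes that passed a filter on low counts were tested. Of 8 dendritic cell markers, 7 had counts in the pair, with summed levels of 3931 to 4138 CPM against 3250 to 3633 with SeV, 3594 to 3717 with CpGB and 2986 to 3241 in Ctrl. The 7 macrophage markers summed to 10038 to 11169 CPM in the pair and 9795 to 10273 with SeV, 10982 to 11353 with CpGB and 11425 to 12635 in Ctrl. Neutrophil markers summed to 528 to 845 CPM in Ctrl, 694 to 822 with SeV, 696 to 815 with CpGB and 730.4 to 869 in the pair. The 3 plasmacytoid dendritic cell markers summed to 41.6 to 62.4 CPM in Ctrl, 95.6 to 169 with SeV, 59.9 to 107 with CpGB and 128 to 172 in the pair, with Siglech at 0 in the last 3 groups and Ccr9 at a mean of at most 5.02 CPM. Nearly all of that sum was Tcf4, a transcription factor gene that is less specific to this cell type, at a mean of 140 CPM with SeV, 81.4 with CpGB and 148 in the pair. Tcf4 was thus higher on average in the pair than in CpGB, as were the interferon-response genes, and its part in those results was not tested. T or NK cell and erythroid markers were at 0 in these 4 groups, and B cell markers summed to at most 6.61 CPM. Since these are bulk samples, fewer cells of a type and less RNA per cell cannot be told apart.

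Adding CpGB to SeV raised 11 of 13 tested inflammatory genes and 9 of 17 chemokine genes. The gene lists share members, among them Cxcl1, Cxcl2 and Ccl3 in these 2, so counts by list are not independent. Of 15 interferon-response genes, 0 were called against SeV, although 4 were lower without the fold condition. Against SeV alone, 181 genes (3.83% of those tested) were higher in the pair and 115 (2.44%) were lower, at an adjusted p under 0.05 and a log2 fold change of at least 1 in size (the quasi-likelihood test of edgeR, adjusted by Benjamini-Hochberg, which stands behind each adjusted p given here). Together these were 6.27% of the genes, and without the fold condition 258 (5.47%) were higher and 186 (3.94%) lower. Of the 115 genes lower than SeV, 31 were above Ctrl with SeV alone (10.5% of all genes were), 49 were below Ctrl with CpGB alone (6.27%) and 53 were below Ctrl in the pair (8.47%), counts that share libraries with the comparison itself. The pair libraries lay wholly above the SeV libraries in 179 of the 181 (11.7% of all genes) and wholly below in 110 of the 115 (12.6%), on the same libraries as the calls. The split depended on the scaling: library size alone, which moved the median of all genes by -0.13, gave 147 higher and 169 lower genes, or 163 and 148 relative to that median. DESeq2 called 126 higher and 53 lower.

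Il1b, the precursor of interleukin-1 beta, was at 506, 337 and 385 CPM in the 3 SeV libraries, 5182, 4958 and 6488 with CpGB and 5154, 4691 and 4970.1 in the pair. Every pair library was above every SeV library, the pair and CpGB ranges overlapped, and the rise over SeV on the log2 scale was 3.61 (SE 0.15, adjusted p = 9.30e-61). The neutrophil chemokine Cxcl3 went from 182, 169 and 197 CPM with SeV to 2360.0, 3012 and 3186 in the pair, while CpGB alone gave 4153, 4339.8 and 3698. The difference was 3.95 (SE 0.27, adjusted p = 1.98e-31) over SeV and -0.51 (SE 0.19, adjusted p = 0.223) over CpGB, so its level below CpGB alone did not pass the test, while it passed with DESeq2 (adjusted p = 0.00472) and in the fit of the compared groups alone (2.81e-05). Marco, a scavenger receptor of phagocytes, was at 268, 222 and 267 CPM with SeV and 3974, 3728 and 3985 in the pair, a log2 difference of 3.94 (SE 0.23, adjusted p = 1.73e-39). With CpGB alone it was at 4901, 4339.8 and 3499.9 CPM, a range that contained the pair. The acute-phase gene Saa3 was at 468, 406 and 361 CPM with SeV, 9102, 6658 and 7055 with CpGB and 5916, 5090.5 and 6199 in the pair. All pair libraries lay above SeV and below CpGB for Saa3, but only the difference from SeV passed the test, with log2 fold changes of 3.83 (SE 0.21, adjusted p = 3.74e-42) and -0.40 (SE 0.16, adjusted p = 0.292). In the fit of the compared groups alone the difference of Saa3 from CpGB passed (adjusted p = 0.000638).

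For 3 of the largest rises over SeV the SeV libraries held few or no molecules. Il12b, the shared subunit of interleukins 12 and 23, had 1 UMI over the SeV libraries and 61 over the pair libraries, 67.3 times the SeV level (exact 95% limits 11.6 and 2703). Its levels in the pair were 172, 105 and 172 CPM and with CpGB 165, 179 and 175 CPM, which overlap (log2 fold change -0.21, SE 0.42, adjusted p = 0.907). Cd300e, an activating receptor of myeloid cells, had 0 UMIs with SeV and 22 in the pair, at least 8.10-fold higher against a floor of 3 UMIs over the group (adjusted p = 8.24e-05). Lad1 had 3 UMIs with SeV and 42 in the pair, 15.5 times the SeV level (limits 4.94 and 77.9, adjusted p = 2.31e-06). Such intervals and floors cover counting error only.

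Among the falls below SeV, Cd300lf, an inhibitory receptor of myeloid cells, was at 124, 138 and 127 CPM with SeV, 0, 46.0 and 13.8 with CpGB and 8.19, 15.1 and 19.8 in the pair. Each pair library was below each SeV library, with a log2 difference of -3.07 (SE 0.55, adjusted p = 3.80e-06). Ccnd1, which encodes cyclin D1, was at 95.6, 107 and 145 CPM with SeV and 16.4, 22.6 and 6.61 in the pair (log2 fold change -2.96, SE 0.60, adjusted p = 4.91e-05). Fbrsl1 was at 143, 138 and 150.1 CPM with SeV and 24.6, 22.6 and 19.8 in the pair (-2.66, SE 0.48, adjusted p = 3.89e-06). The immediate-early transcription factor gene Fos was at 124, 123 and 75 CPM with SeV, 9.70, 40.8 and 27.7 with CpGB and 16.4, 22.6 and 6.61 in the pair (-2.73, SE 0.54, adjusted p = 2.92e-05). Pair and SeV libraries did not overlap for Ccnd1, Fbrsl1 or Fos, which the rule that named them, and Cd300lf, required. Gadd45g, a stress-response gene, had 4 UMIs in all over the pair, all in replicate 3, against 47.8, 61.3 and 122 CPM with SeV (adjusted p = 0.000329), and lost its call without SeV replicate 3 (0.0582). Homer1, a scaffold protein gene, had 3 UMIs in the pair and 28 with SeV, 0.118 times the SeV level (limits 0.0230 and 0.383, adjusted p = 0.00339).

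**Figure D1:**
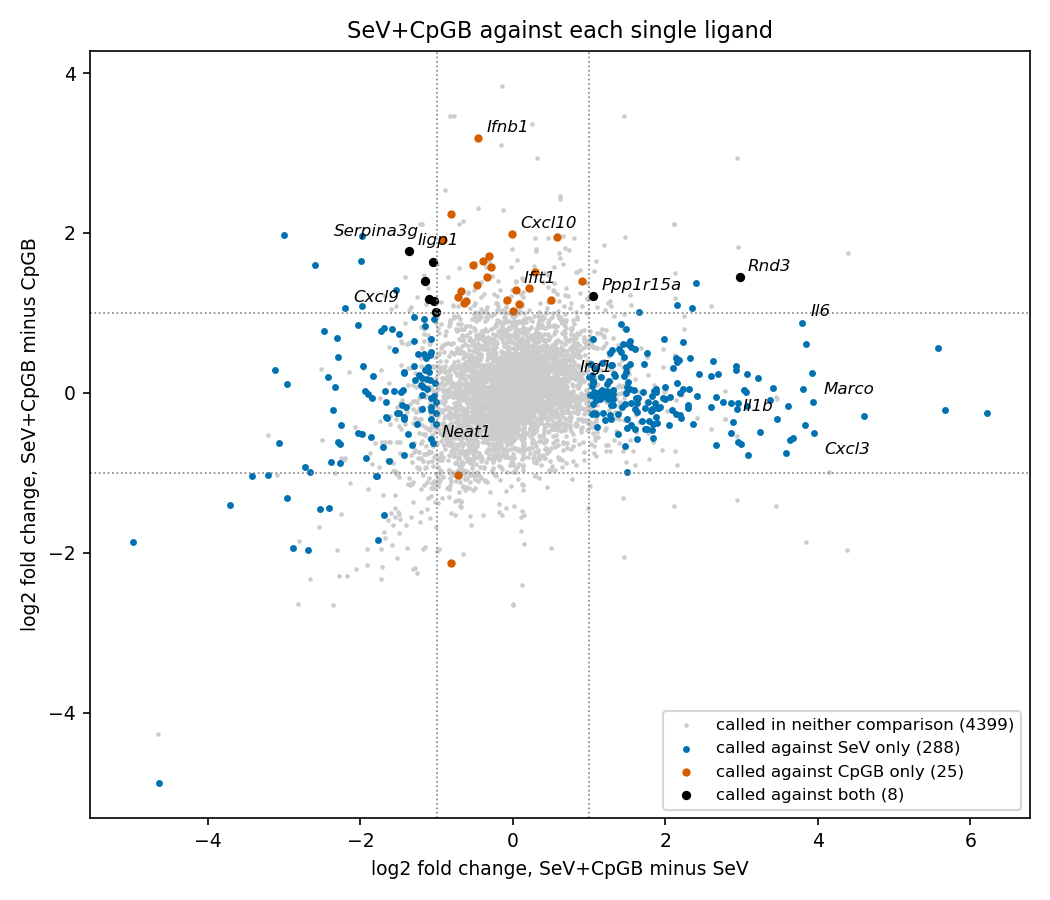
Log2 fold changes of the 4720 tested genes in SeV+CpGB against SeV (horizontal axis) and against CpGB (vertical axis), each point 1 gene, with dotted lines at a log2 fold change of 1 in either direction. Called genes spread far along the horizontal axis (288 called against SeV only) and little along the vertical axis (25 against CpGB only, 8 against both).

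Adding SeV to CpGB changed far fewer genes, and nearly all of them rose. Against CpGB alone 31 genes (0.657%) were higher in the pair and 2 (0.0424%) were lower, 33 in all (0.699%). Without the fold condition these were 59 (1.25%) and 7 (0.148%). Of the 31, 27 were above Ctrl with SeV alone (10.5% of all genes were, and 5.13% were below), and in all 31 each pair library was above each CpGB library (9.56% of all genes, while 6.74% had each below). The last count rests on the same libraries as the call and adds no support to it. The 31 included Ifnb1 and the interferon-stimulated genes Cxcl10, Ifit1, Ifit2, Ifit3, Rsad2, Mx1, Mx2, Cmpk2, Irf1, Socs1 and Gbp4. Without CpGB replicate 1 the number was 19, of which 18 were among the 31. That library also stood lowest in the interferon-response genes, with a mean over 15 genes of 9.01 on the log2 CPM scale against 9.54 and 9.58 in the other CpGB libraries and 10.31 to 10.44 in the pair.

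Ifnb1, the gene of interferon beta, was at 248, 261 and 244 CPM with SeV, 38.8, 10.2 and 18.4 with CpGB and 238, 158 and 159 in the pair. The lowest pair library was above the highest CpGB library, and the log2 fold change over CpGB was 3.18 (SE 0.46, adjusted p = 2.97e-08). All pair libraries were below the SeV libraries, but the difference from SeV did not pass the test, at -0.45 (SE 0.28, adjusted p = 0.41). Of the 9 genes on the list of type I and III interferons, Ifnb1 was the 1 that passed the filter on low counts. Cxcl10, a chemokine for activated T cells, was at 7263, 7105 and 6923 CPM with SeV, 902, 2471 and 1831 with CpGB and 7653, 6197 and 7329.6 in the pair. The pair libraries overlapped SeV and exceeded CpGB, with log2 fold changes of -0.01 (SE 0.17, adjusted p = 0.993) and 1.98 (SE 0.18, adjusted p = 1.52e-19).

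The serine protease inhibitor gene Serpina3g was at 2867, 2545 and 2336 CPM with SeV, 194, 357 and 466 with CpGB and 1565, 1137 and 1375 in the pair. The 3 groups did not overlap, with the pair 1.91 (SE 0.22, adjusted p = 7.94e-13) above CpGB and -0.92 (SE 0.18, adjusted p = 3.09e-05) against SeV, both as log2 fold changes. Its relative Serpina3f was at 9.70, 20.4 and 50.7 CPM with CpGB and 164, 90.4 and 185 in the pair (2.23, SE 0.42, adjusted p = 6.90e-05), and how reads shared between these near-identical genes were counted is not given in the sources used here. The values of single members of the Ifit and Gbp families, and of Ccl12 beside Ccl2, are uncertain for the same reason. Iigp1, an interferon-induced GTPase that attacks pathogen vacuoles, was at 822, 605 and 530.0 CPM with SeV, 77.6, 61.3 and 78.4 with CpGB and 303, 226 and 218 in the pair. Its pair libraries lay between both singles without overlap, 1.77 (SE 0.33, adjusted p = 4.72e-05) against CpGB and -1.36 (SE 0.23, adjusted p = 6.09e-07) against SeV.

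Psme4, Mark3 and Son passed the test against CpGB less firmly. Psme4, a proteasome activator gene, was at 0, 15.3 and 18.4 CPM with CpGB and 57.4, 67.8 and 39.7 in the pair (1.95, SE 0.55, adjusted p = 0.0397). The kinase gene Mark3 was at 48.5, 51.1 and 64.6 CPM with CpGB and 8.19, 0 and 26.4 in the pair (-2.12, SE 0.58, adjusted p = 0.029), and the splicing factor gene Son at 252, 219.5 and 171 CPM with CpGB and 115, 120.5 and 72.7 in the pair (-1.03, SE 0.28, adjusted p = 0.0275). With DESeq2 the adjusted p was 0.547 for Psme4, 0.622 for Mark3 and 0.224 for Son. Psme4 lost its call in 10 of 15 alternative settings. Mark3 and Son, the 2 genes called lower than CpGB, each lost theirs in 7 of 16. With DESeq2 and with libraries thinned to equal totals, 0 genes were lower than CpGB.

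The promoters of 5 genes are shown: Ifnb1, Cxcl10 and Ifit1, for which the pair was called nearer SeV than CpGB, and Il6 and Il12b, for which it was called nearer CpGB. Each run is the 250 bases before the gene's start on its own strand, 5′ to 3′, from RefSeq on GRCm38.p6. Capitals mark matches, on either strand, to the ISRE letters (GAAA, any 2 bases, GAAA) or the kappaB letters (GGGA, any 4 bases, CC). Ifnb1 lies at chr4:88522795-88523044 on the minus strand, Cxcl10 at chr5:92348890-92349139 on the minus strand, Ifit1 at chr19:34640639-34640888 on the plus strand, Il6 at chr5:30012864-30013113 on the plus strand and Il12b at chr11:44399813-44400062 on the plus strand.
Ifnb1: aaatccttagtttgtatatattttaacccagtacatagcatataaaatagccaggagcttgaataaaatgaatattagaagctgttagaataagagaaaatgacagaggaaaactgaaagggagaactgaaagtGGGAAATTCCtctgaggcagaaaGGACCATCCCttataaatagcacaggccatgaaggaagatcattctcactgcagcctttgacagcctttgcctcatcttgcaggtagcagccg
Cxcl10: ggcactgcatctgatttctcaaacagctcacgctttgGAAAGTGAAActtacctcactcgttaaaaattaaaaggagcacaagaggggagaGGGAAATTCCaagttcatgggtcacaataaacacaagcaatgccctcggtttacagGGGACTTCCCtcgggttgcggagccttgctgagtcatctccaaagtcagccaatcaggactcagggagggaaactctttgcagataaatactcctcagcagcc
Ifit1: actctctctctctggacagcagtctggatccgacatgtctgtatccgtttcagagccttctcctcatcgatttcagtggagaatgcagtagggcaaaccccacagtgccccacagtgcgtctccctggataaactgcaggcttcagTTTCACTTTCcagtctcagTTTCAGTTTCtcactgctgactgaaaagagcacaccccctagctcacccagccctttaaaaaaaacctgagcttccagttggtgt
Il6: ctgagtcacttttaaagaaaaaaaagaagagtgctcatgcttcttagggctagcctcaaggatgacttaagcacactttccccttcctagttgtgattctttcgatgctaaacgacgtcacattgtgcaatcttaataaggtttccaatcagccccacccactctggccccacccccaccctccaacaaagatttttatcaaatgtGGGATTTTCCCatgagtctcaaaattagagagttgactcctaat
Il12b: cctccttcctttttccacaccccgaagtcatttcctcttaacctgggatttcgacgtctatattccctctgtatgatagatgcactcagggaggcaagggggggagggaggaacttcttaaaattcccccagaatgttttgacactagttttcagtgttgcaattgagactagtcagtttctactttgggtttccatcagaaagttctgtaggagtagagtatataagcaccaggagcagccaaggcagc
The Ifit1 window held 2 ISRE matches, from -104 to -95 and from -85 to -76 counted from the start. Cxcl10 held 1 ISRE match and 3 kappaB matches, 2 of which are the same bases read on both strands. Ifnb1 held 2 kappaB matches, and Il6 held 2 that overlap on opposite strands, from -44 to -34 together. Il12b held 0 matches to either. No match says only that these letters are not in this window. Of the 31 genes higher than CpGB, 26 matched the promoter table, of which 10 (38.5%) held the ISRE letters and 9 (34.6%) the kappaB letters. Of the 181 genes higher than SeV, 143 matched, of which 7 (4.90%) held the ISRE letters and 51 (35.7%) the kappaB letters. The shares were 4.45% and 26.7% over the 3816 tested genes that matched, and 3.46% and 19.7% over all 27025 promoters. A match is a description of the sequence and not a binding site.

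No gene met the full rule for lying above both single ligands (0% of genes tested), and none met it for lying below both. The rule asked that the larger of both p-values pass 0.05 after adjustment by Benjamini-Hochberg (edgeR), and that the pair differ from each single by 1 or more on the log2 scale. At an unadjusted p under 0.05 with the same folds, 9 genes were above both and 24 below both, and DESeq2 called 0 in either direction. In a fit of these 9 libraries alone, 1 gene was above both (Rnd3) and 1 below both (Ifi27l2a). The same rule gave 35 genes (0.742%) above both and 4 (0.0847%) below both for cGAMP+CpGB, and 34 (0.720%) and 4 (0.0847%) for PAM+SeV. In SeV+CpGB the pair libraries lay above all 6 single-ligand libraries in 97 genes (2.06%) and below all 6 in 77 (1.63%). The difference between these numbers was not tested.

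Without a fold threshold, 2 genes were above both singles (0.0424%): Il6, an inflammatory cytokine, and Irg1, the enzyme that makes itaconate. Il6 was at 182, 138 and 150.1 CPM with SeV, 1009, 1195 and 1277 with CpGB and 2122, 1905 and 2432 in the pair, with 97.0, 99.8 and 182 in Ctrl. Its lowest pair library exceeded its highest CpGB library, and the log2 fold change was 3.80 (SE 0.20, adjusted p = 1.50e-45) over SeV and 0.88 (SE 0.14, adjusted p = 1.95e-06) over CpGB. The adjusted p of the joint test was 2.43e-05, and Il6 kept this call under all 16 alternative settings run. Irg1 was at 2599, 2184 and 2125 CPM with SeV, 2397, 2829 and 2564 with CpGB and 3827, 3788 and 3595 in the pair. All pair libraries of Irg1 lay above all 6 single-ligand libraries, by 0.71 (SE 0.11, adjusted p = 9.19e-08) over SeV and 0.52 (SE 0.11, adjusted p = 0.000793) over CpGB (joint adjusted p = 0.00317), and the joint call was lost without CpGB replicate 1 and without SeV+CpGB replicate 2.

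The 1 gene below both without a fold threshold (0.0212%) was Neat1, a long noncoding RNA that builds nuclear paraspeckles. It was at 2272, 2245 and 2055 CPM in Ctrl, 860.1, 950.4 and 919 with SeV, 650.2, 679 and 706 with CpGB and 459, 527 and 344 in the pair. Every pair library was below every library of Ctrl, SeV and CpGB, and the pair was -1.05 (SE 0.15, adjusted p = 5.77e-09) against SeV and -0.63 (SE 0.16, adjusted p = 0.0102) against CpGB, with a joint adjusted p of 0.0459, a call kept in 7 of 16 alternative settings. It was lost with DESeq2, without the filter, after thinning, and without any 1 of the CpGB libraries, SeV replicate 1 or SeV+CpGB replicates 1 or 3. Rnd3, a small GTPase gene, and Ppp1r15a, which restarts translation after stress, were chosen after their values were seen, because each passed both comparisons taken singly. Rnd3 was at 19.1, 15.3 and 14.1 CPM with SeV, 38.8, 40.8 and 55.3 with CpGB and 98.3, 166 and 119 in the pair (log2 fold changes 2.98, SE 0.53, adjusted p = 2.55e-06 and 1.45, SE 0.40, adjusted p = 0.0331, joint adjusted p = 0.12). Ppp1r15a was at 47.8, 76.6 and 56.3 CPM with SeV, 29.1, 81.7 and 41.5 with CpGB and 156, 128 and 99.1 in the pair (joint adjusted p = 0.469). The joint test passed for neither.

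**Figure D2:**
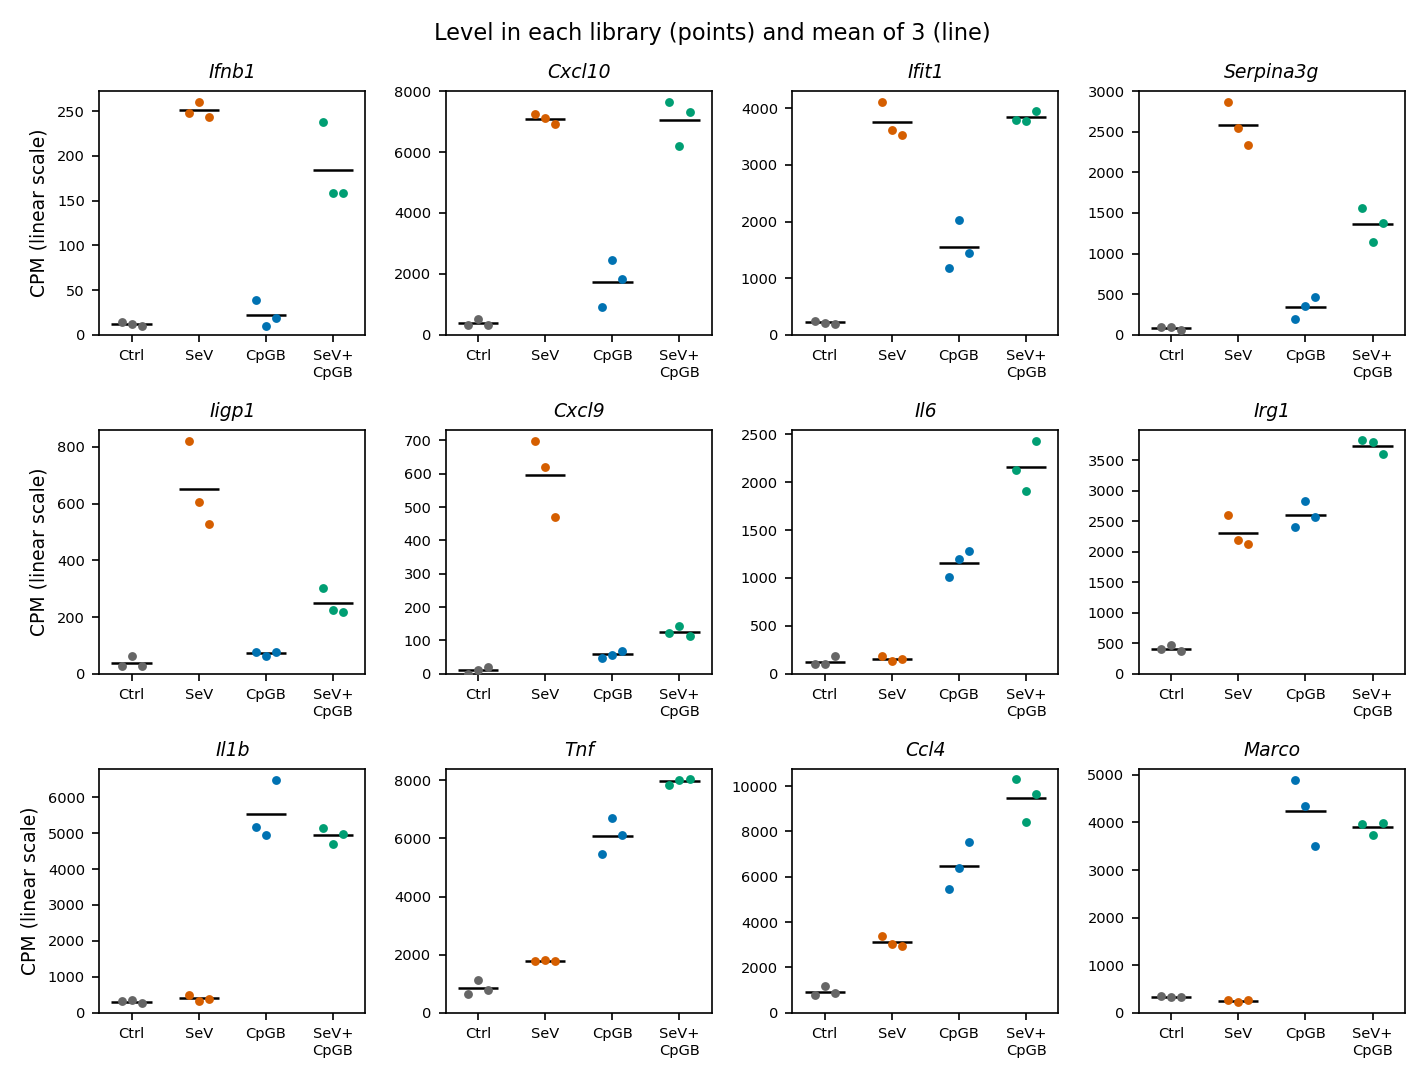
Level of 12 genes in each library of Ctrl, SeV, CpGB and SeV+CpGB, in CPM on linear axes from 0, points for libraries and lines for means of 3. Ifnb1, Cxcl10 and Ifit1 in the pair were called nearer SeV, Cxcl9 lies between both, and Il6 and Irg1 sit above both.

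To ask which ligand the pair followed, the genes that differ between the singles were used: 247 were higher with SeV (5.23%) and 247 higher with CpGB (5.23%). The pair was compared with the midpoint of both singles on the log2 scale, and a gene was called nearer 1 ligand when the pair differed from that midpoint at an adjusted p under 0.05. It was nearer CpGB for 92 genes (1.95%) and nearer SeV for 8 (0.169%), with 394 unresolved. Over all genes 155 (3.28%) differed from the midpoint. Of the 92, 84 were genes with the higher level in CpGB alone, and 8 were genes with the higher level in SeV alone. The last number was 1 with DESeq2 and without CpGB replicate 3, and 2 without the filter, CpGB replicate 2 or SeV+CpGB replicate 1. It was 3 without SeV+CpGB replicate 3, 5 without SeV replicate 1 or SeV+CpGB replicate 2, and 14 with library size alone or the compared groups alone. All 8 genes nearer SeV were higher with SeV alone: Cd69, Cmpk2, Cxcl10, Ifit1, Ifnb1, Mx1, Mx2 and Rsad2. The number nearer SeV was 5 without CpGB replicate 1, all among the 8, and the number nearer CpGB was 55 with DESeq2.

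On a scale where 0% is the level of CpGB alone and 100% that of SeV alone, the median position of the pair was 11.4% for the 247 genes higher with CpGB (quartiles 1.65% and 26.5%) and 43.2% for the 247 genes higher with SeV (20.7% and 61.8%). These classes compare the singles with each other and not with Ctrl, and they share the single-ligand libraries with the position, so the positions are a description.

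Cd69, an early activation antigen, was at 592, 621 and 530.0 CPM with SeV, 233, 235 and 267 with CpGB and 672, 753 and 687 in the pair. All pair libraries were above both singles, though only the difference from CpGB passed the test (1.51, SE 0.21, adjusted p = 5.88e-09 and, over SeV, 0.29, SE 0.19, adjusted p = 0.424). Mx2, an antiviral GTPase, was at 439.6, 544 and 516 CPM with SeV, 194, 281 and 217 with CpGB and 615, 512 and 628 in the pair, 1.31 (SE 0.20, adjusted p = 1.24e-07) over CpGB. Ifit1, which binds viral RNA, was at 4119, 3625 and 3536 CPM with SeV, 1174, 2027 and 1443 with CpGB and 3802, 3780.2 and 3946 in the pair, 1.29 (SE 0.14, adjusted p = 1.30e-13) over CpGB. For Mx2 and Ifit1 the pair libraries overlapped the SeV range and lay above every CpGB library. Cmpk2, a mitochondrial nucleotide kinase induced by interferon, was at 4319, 4491 and 4292 CPM with SeV, 815, 1128 and 1024 with CpGB and 3097, 3208 and 2822 in the pair. Its pair libraries lay between both singles at a position of 75.4%, -0.52 (SE 0.15, adjusted p = 0.00958) against SeV, under the fold threshold, with an adjusted p of 0.0853 without SeV+CpGB replicate 3.

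**Figure D3:**
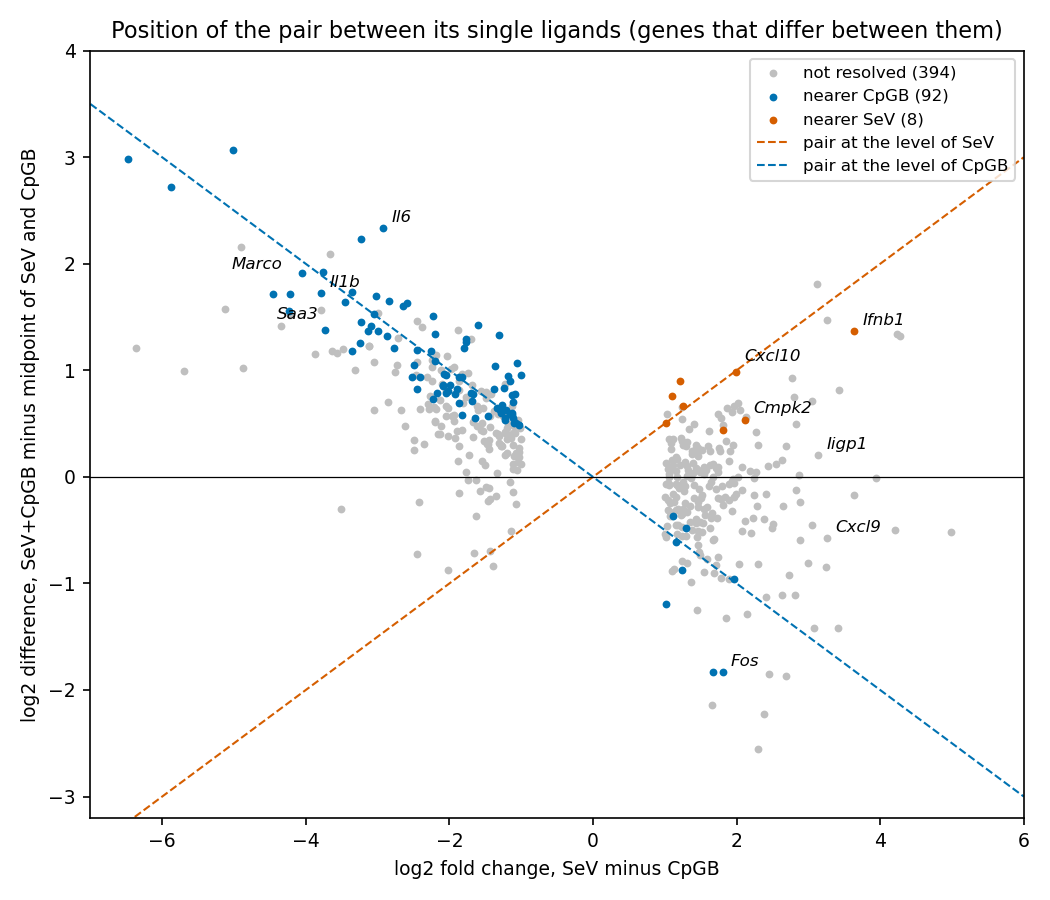
For the 494 genes that differ between the singles, the log2 fold change of SeV over CpGB (horizontal axis) and the log2 difference of SeV+CpGB from the midpoint of both (vertical axis), with dashed lines where the pair would equal SeV or CpGB. Of the genes higher with CpGB, on the left, 84 were called nearer CpGB, and of the genes higher with SeV, on the right, 8 were called nearer each ligand.

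Of the 15 interferon-response genes, 0 passed the test against SeV with the fold threshold (6.27% of all genes did, and 4 of the 15 were lower without it). The median log2 fold change was -0.15, beside -0.01 over all genes. Against CpGB 8 of 15 were higher and 0 lower (0.657% and 0.0424% of all genes), with a median of 1.02 beside 0.01 over all genes. Rsad2, which encodes the antiviral enzyme viperin, was at 8696, 8531 and 9108 CPM with SeV, 1747, 2997 and 2628 with CpGB and 6523, 6348 and 6179.6 in the pair. It lay between both without overlap, 1.35 (SE 0.16, adjusted p = 8.19e-13) over CpGB and -0.47 (SE 0.15, adjusted p = 0.0233) against SeV. Isg15, a ubiquitin-like modifier, passed neither test, at 1032, 1096 and 976 CPM with SeV, 699, 990.5 and 862 with CpGB and 1311, 986 and 1223 in the pair (log2 fold changes of 0.19 and 0.44, adjusted p = 0.566 and 0.165). Irf7, the factor that amplifies interferon genes, was at 1453, 1456 and 1402 CPM with SeV, 786, 949.7 and 1116 with CpGB and 1589.7, 1227 and 1249 in the pair (0.48 over CpGB, adjusted p = 0.127). Mx1 was at 6001, 5158 and 5154 CPM with SeV, 2018, 3222 and 2707 with CpGB and 5859, 5181 and 5241 in the pair, 1.02 (SE 0.13, adjusted p = 3.32e-11) over CpGB. In 8 of 16 alternative settings the difference of Mx1 fell under the fold threshold, to 0.85 at the lowest, and the number of interferon-response genes higher than CpGB ran from 6 to 9.

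Irf1, a transcription factor shared by interferon and NF-kB signalling, was at 698, 682 and 530.0 CPM with SeV, 58.2, 240.0 and 198 with CpGB and 402, 414 and 383 in the pair. Its pair libraries lay between both singles (-0.64, SE 0.18, adjusted p = 0.00687 against SeV, 1.12, SE 0.21, adjusted p = 6.90e-05 against CpGB). Cxcl9, a chemokine for T cells best known as a target of interferon gamma, was at 698, 621 and 469 CPM with SeV, 48.5, 56.2 and 69.2 with CpGB and 123, 143 and 112 in the pair. Every pair library was below every SeV library, with a log2 difference of -2.20 (SE 0.26, adjusted p = 2.97e-13), and above every CpGB library by 1.06 (SE 0.38, adjusted p = 0.177), which did not pass. Cxcl11, of the same chemokine group, was at 162, 76.6 and 122 CPM with SeV and 32.8, 37.7 and 19.8 in the pair (-1.97, SE 0.54, adjusted p = 0.00638).

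Of 12 tested GTPases of cell-autonomous defence, Gbp8 and Iigp1 were lower than SeV (2.44% over all genes), and Gbp4 and Iigp1 were higher than CpGB (0.657% over all genes). Without the fold condition 6 were higher than CpGB, where the median over the 12 was 0.76 beside 0.01 over all genes, and 1 was higher and 2 lower than SeV (median -0.17 beside -0.01). With the fold condition the number higher than CpGB was 4 without CpGB replicate 3 and 2 or 3 in the other settings. Gbp8 was at 143, 92.0 and 98.5 CPM with SeV, 19.4, 30.6 and 36.9 with CpGB and 32.8, 30.1 and 26.4 in the pair (-1.84, SE 0.49, adjusted p = 0.00386 against SeV). Gbp4 was at 487, 498 and 492 CPM with SeV, 107, 158 and 148 with CpGB and 418, 392 and 364 in the pair (1.45, SE 0.25, adjusted p = 5.71e-06 over CpGB). Of 14 genes of MHC class I presentation and 10 of the RIG-I pathway, 0 were called against either single (edgeR). Over all genes 6.27% were called against SeV and 0.699% against CpGB, so 0 is near the share for lists of this size. Without the fold condition Psme2, a proteasome activator subunit, was higher than SeV (0.84, SE 0.15, adjusted p = 2.15e-06). Likewise Ifih1, which encodes the RNA sensor MDA5, and Trim25, a ubiquitin ligase that activates RIG-I, were higher than CpGB (0.98, SE 0.17, adjusted p = 5.71e-06 and 0.71, SE 0.20, adjusted p = 0.0316). Ddx58, which encodes RIG-I, was at 659, 667 and 624 CPM with SeV, 466, 500.4 and 493 with CpGB and 557, 617 and 687 in the pair (log2 fold changes of -0.05 and 0.35, adjusted p = 0.912 and 0.433). The chain from receptor to response could not be followed to TLR9, since Tlr9 had 0 UMIs in all 4 groups.

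Of the 15 genes of the inflammatory list 13 were tested. Of these, 11 were higher than SeV (3.83% over all genes) with a median log2 fold change of 2.93. None was called against CpGB (0.699% over all genes, which is near 0 of 13), where the median was 0.09. All 11 that differed between the singles were called nearer CpGB. Tnf was at 1787, 1824 and 1768 CPM with SeV, 5473, 6699 and 6109.8 with CpGB and 7826, 8019.8 and 8037 in the pair. All pair libraries of Tnf lay above all CpGB libraries, yet the log2 fold change of 0.38 (SE 0.15, adjusted p = 0.278) did not pass, while it passed with DESeq2 (adjusted p = 0.0336) and in the fit of the 9 libraries (0.0120). Against SeV it was 2.15 (SE 0.17, adjusted p = 3.29e-26). Ptgs2, the inducible cyclooxygenase, was at 9.56, 38.3 and 46.9 CPM with SeV, 184, 209 and 346 with CpGB and 279, 324 and 304 in the pair, 3.07 (SE 0.39, adjusted p = 1.95e-11) over SeV and 0.23 (SE 0.25, adjusted p = 0.827) over CpGB. Cxcl1, a neutrophil chemokine, was at 19.1, 30.7 and 42.2 CPM with SeV, 611, 618 and 687 with CpGB and 483, 384 and 436 in the pair, 3.67 (SE 0.39, adjusted p = 2.72e-15) over SeV. Its pair libraries were below every CpGB library, at -0.57 (SE 0.22, adjusted p = 0.262), which did not pass, while it did in the fit of the compared groups alone (0.0135).

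Of 17 chemokines, 9 were higher than SeV (3.83% over all genes), Cxcl9 and Cxcl11 were lower (2.44%), and Cxcl10 was the 1 higher than CpGB (0.657%). Ccl3, an inflammatory chemokine, was at 1195, 1104 and 1013 CPM with SeV, 5667, 6668 and 7359 with CpGB and 8981, 7289 and 8684 in the pair (2.92, SE 0.16, adjusted p = 3.74e-42 over SeV). Ccl4, a chemokine for monocytes and T cells, was at 3383, 3035 and 2964 CPM with SeV, 5463, 6372 and 7525 with CpGB and 10300.3, 8411 and 9669 in the pair. Its pair libraries exceeded both singles, by 1.60 (SE 0.16, adjusted p = 1.15e-17) over SeV and 0.55 (SE 0.15, adjusted p = 0.0314) over CpGB, the last under the fold threshold and not past the joint test (0.12). The difference of Ccl4 from CpGB no longer passed an adjusted p of 0.05 in 7 of 16 alternative settings, among them without CpGB replicate 1 (adjusted p = 0.357). Ccl5 was at 5963, 5105 and 4915 CPM with SeV, 11577, 12759 and 16988 with CpGB and 16331, 12704 and 16490.0 in the pair, 1.51 (SE 0.15, adjusted p = 2.78e-18) over SeV and overlapping CpGB. Ccl22, which attracts cells with CCR4, was at 143, 161 and 103 CPM with SeV, 989.8, 1174 and 1074 with CpGB and 1106, 1047 and 1124 in the pair, 3.06 (SE 0.21, adjusted p = 3.12e-32) over SeV. Ccl22 in the pair overlapped CpGB and was clear of SeV.

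Among 16 tested cytokines 8 were higher than SeV (Il6, Il12a, Il12b, Il18, Ebi3, Il1a, Il1b and Tnf) and 0 were called against CpGB. Over all genes 3.83% were higher than SeV and 0.699% were called against CpGB, so 0 of 16 is near the share over all genes. Of the 8, Il6, Il12b, Il1a, Il1b and Tnf are also on the inflammatory list. Il15, a survival factor for NK and memory T cells, was at 143, 199 and 253 CPM with SeV, 77.6, 112 and 101 with CpGB and 164, 128 and 165 in the pair, and neither difference passed (-0.45 and 0.60, adjusted p = 0.375 and 0.461). Its receptor chain Il15ra was at 478, 475 and 511 CPM with SeV, 136, 117 and 115 with CpGB and 336, 256 and 152 in the pair and was called between both, -1.01 (SE 0.21, adjusted p = 0.000137) against SeV and 1.01 (SE 0.27, adjusted p = 0.0238) against CpGB. The pair libraries of Il15ra varied widely, the lowest still above every CpGB library. Its call over CpGB was lost in at least 10 of 16 alternative settings, DESeq2 among them, and its call against SeV in at least 7. Il10 had 4 UMIs over the pair, all in replicate 2, Il27 was at 41.0, 15.1 and 26.4 CPM and Nos2 at 16.4, 7.53 and 33.0 CPM in the pair, and these 3 genes were called against neither single.

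Of 16 NF-kB feedback genes 7 were higher than SeV (3.83% over all genes) and 0 were called against CpGB (0.699% over all genes, which is near 0 of 16). Nfkbia and Nfkbiz are also on the inflammatory list. Nfkbia, the NF-kB inhibitor, was at 612, 651 and 652 CPM with SeV, 1262, 1353 and 1508 with CpGB and 1336, 1212 and 1579.6 in the pair, 1.11 (SE 0.13, adjusted p = 2.97e-13) over SeV (adjusted p = 0.998 against CpGB). Tnfaip3, which encodes the deubiquitinase A20, was at 306, 399 and 347 CPM with SeV, 495, 490.1 and 586 with CpGB and 533, 572 and 575 in the pair, 0.67 (SE 0.17, adjusted p = 0.00307) over SeV, under the fold threshold. Of 9 tested costimulation and maturation genes, Cd40, Cd83 and Fscn1 were higher than SeV and Il15ra was lower, while Il15ra alone was called against CpGB, where it was higher (3 genes were without the fold condition). Cd40, the receptor for T cell help, was at 478, 353 and 408 CPM with SeV, 650.2, 914 and 687 with CpGB and 1344, 1182 and 978 in the pair. The pair libraries of Cd40 were above both singles, by 1.50 (SE 0.18, adjusted p = 2.37e-13) over SeV and 0.61 (SE 0.16, adjusted p = 0.0154) over CpGB, and the joint adjusted p was 0.0685. The difference of Cd40 from CpGB no longer passed an adjusted p of 0.05 with DESeq2 (0.109), without CpGB replicate 1 (0.182) and in 4 other settings.

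Of 10 tested phagocyte surface genes, Marco was higher than SeV, and Mrc1, Ccr2 and Clec7a were lower (over all genes 3.83% were higher and 2.44% lower). Without the fold condition 7 were lower, and the median over the 10 was -0.83 beside -0.01 over all genes. With the fold condition the number lower was 5 with library size alone and 2 to 4 in the other settings. Mrc1, the mannose receptor, was at 172, 207 and 197 CPM with SeV, 48.5, 56.2 and 83.0 with CpGB and 98.3, 82.8 and 92.5 in the pair, -1.08 (SE 0.31, adjusted p = 0.00878) against SeV. Ccr2, the receptor of Ccl2, was at 143, 146 and 169 CPM with SeV, 38.8, 20.4 and 64.6 with CpGB and 16.4, 45.2 and 33.0 in the pair, -2.25 (SE 0.48, adjusted p = 0.000157). Clec7a, the beta-glucan receptor, was at 793, 927 and 877 CPM with SeV, 349, 291 and 503 with CpGB and 393, 377 and 370.1 in the pair, -1.19 (SE 0.17, adjusted p = 3.52e-09). For each of these the pair libraries were all below SeV. Clec7a was called nearer CpGB, and Mrc1 and Ccr2 were unresolved. Slc7a2, an arginine transporter, rose over SeV from 468, 429 and 375 to 1089.8, 1227 and 1183 CPM, 1.48 (SE 0.14, adjusted p = 3.30e-19). Irak3, an inhibitor of MyD88 signalling, was the 1 of 10 tested TLR9 pathway genes called (2 were higher and 1 lower than SeV without the fold condition), from 19.1, 30.7 and 18.8 to 90.1, 143 and 132 CPM, 2.42 (SE 0.47, adjusted p = 2.69e-05). Of 15 glycolysis genes and 11 cholesterol synthesis genes, 0 were called against either single (edgeR, also 0 without the fold threshold). Over all genes 6.27% were called against SeV and 0.699% against CpGB, so 0 is near the share for lists of this size.

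**Figure D4:**
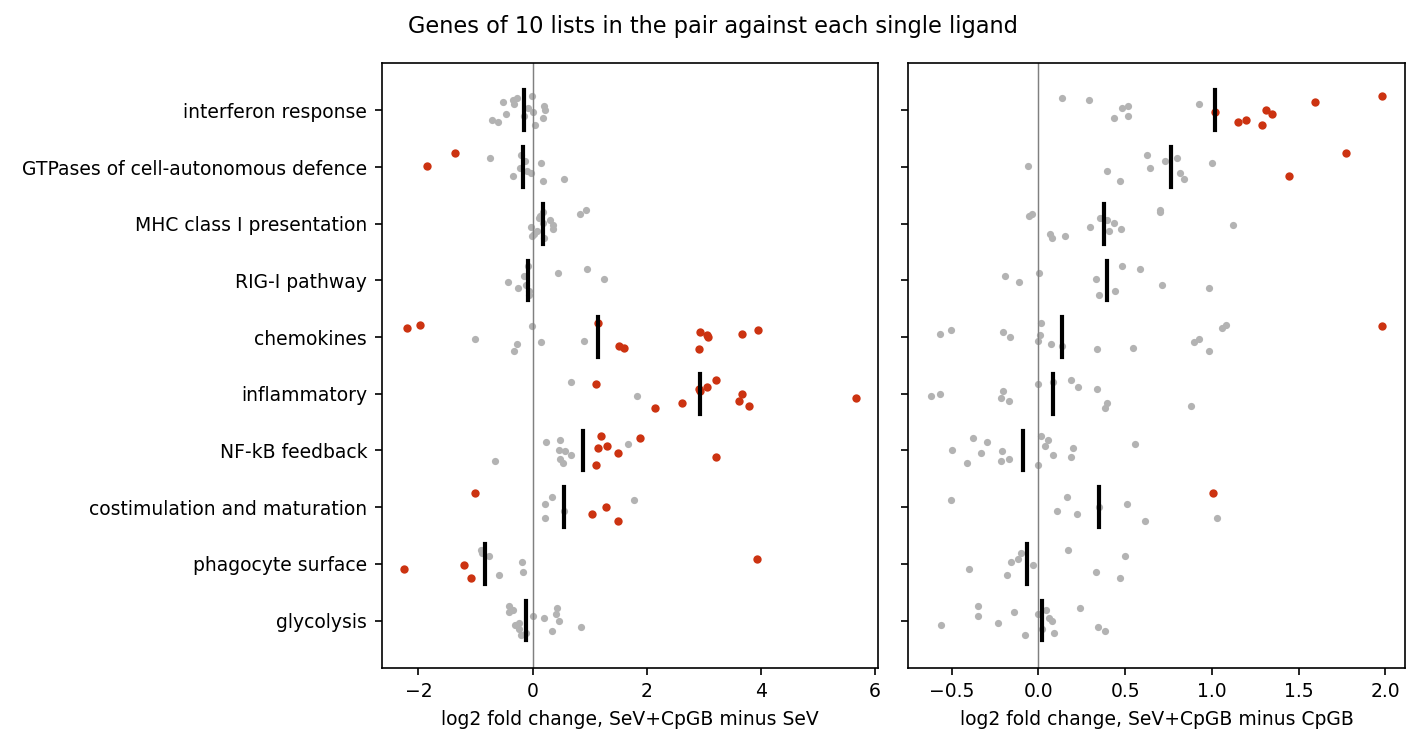
Log2 fold changes of the tested genes of 10 lists in SeV+CpGB against SeV (left) and against CpGB (right), with points for genes, red where called, and a black line at the median of each list. The horizontal axes differ in range. The inflammatory list has its median at 2.93 on the left and 0.09 on the right, and the interferon-response list at -0.15 on the left and 1.02 on the right.

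With Ctrl as the baseline, the pair was compared with the sum of both log2 responses, where 0 means that the log2 effects of SeV and CpGB add up. The difference was called for 319 genes (6.76%), 268 negative (5.68%) and 51 positive (1.08%). A negative value places the pair below that sum of log2 responses and need not place it below either single. Irg1, whose pair libraries lay above all libraries of both singles, was also negative. Of the 268, 220 had both singles above Ctrl (over all genes 10.5% were above Ctrl with SeV and 10.8% with CpGB) and 238 were above Ctrl in the pair (13.2% of all genes). Of the 51, 14 had both singles below Ctrl (over all genes 5.13% were below Ctrl with SeV and 6.27% with CpGB) and 1 was above Ctrl in the pair. All of these counts rest on the same libraries as the test. All 15 interferon-response genes were negative, with a median of -2.83 beside 0.00 over all genes, as were 11 of 12 GTPases and 9 of 14 MHC class I genes. None of the 13 inflammatory genes was called (edgeR), with a median of -0.53. Ifit1, raised from 218 ± 29.1 CPM in Ctrl (mean ± SD, n = 3), had a difference of -2.83 (SE 0.26, adjusted p = 1.08e-18), Irg1 of -1.96 (SE 0.19, adjusted p = 1.45e-17) and Il6 of 0.65 (SE 0.38, adjusted p = 0.394). The number of called genes was 188 with DESeq2 and 211 with libraries thinned to 61823 UMIs.

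Among genes with at least 50 CPM in any group, the 4 largest negative differences belonged to Phf11a, Upp1, Ccl12 and Ddx60, which had 0 UMIs in Ctrl, so their fitted values depend on the prior count. Phf11a was at 153, 146 and 164 CPM with SeV, 48.5, 76.6 and 83.0 with CpGB and 156, 82.8 and 145 in the pair, at least 10.9-fold above Ctrl. Upp1, uridine phosphorylase, was at 191, 123 and 127 CPM with SeV, 38.8, 56.2 and 106 with CpGB and 98.3, 105 and 152 in the pair, at least 10.3-fold. Ccl12 was at 115, 161 and 164 CPM with SeV, 38.8, 51.1 and 27.7 with CpGB and 156, 22.6 and 52.9 in the pair, with pair libraries that ran across both single ranges. Ddx60, a helicase induced by interferon, was at 95.6, 53.7 and 113 CPM with SeV, 0, 76.6 and 41.5 with CpGB and 123, 52.7 and 72.7 in the pair. In these 4 genes the pair was called against neither single. Ccl12 was called lower than SeV in 3 alternative settings: the compared groups alone (adjusted p = 0.029), library size alone (0.043) and without SeV+CpGB replicate 1 (-1.93, adjusted p = 0.00399). The 4 largest positive differences were genes that both singles lowered, unlike most of the 51. Daglb, a lipase, was at 152, 162 and 211 CPM in Ctrl, 105, 38.3 and 70.4 with SeV, 0, 5.11 and 9.22 with CpGB and 41.0, 45.2 and 26.4 in the pair (3.88, SE 0.88, adjusted p = 0.000593). C77080 was at 0, 7.66 and 18.8 CPM with SeV, 0 with CpGB and 16.4, 7.53 and 6.61 in the pair (4 UMIs in all), with a mean of 69.6 ± 27.1 (SD, n = 3) in Ctrl. Prpf39 was at 19.1, 15.3 and 0 CPM with SeV, 19.4, 15.3 and 32.3 with CpGB and 49.2, 22.6 and 72.7 in the pair, with a mean of 65.3 ± 13.9 (SD, n = 3) in Ctrl. Prpf39 was called higher than SeV (2.35, SE 0.69, adjusted p = 0.0123), a call lost in 3 of 15 alternative settings. Nop56 was at 19.1, 7.66 and 4.69 CPM with SeV, 19.4, 20.4 and 27.7 with CpGB and 0, 15.1 and 52.9 in the pair, with a mean of 91.6 ± 17.4 (SD, n = 3) in Ctrl. The pair mean of Nop56 (22.6 CPM) was at the level of CpGB alone (22.5) and rested largely on replicate 3. The pair and Ctrl ranges overlapped for Prpf39 and not for Daglb, C77080 or Nop56.

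To show where SeV+CpGB differed from similar pairs, it was set against cGAMP+CpGB, in which the cyclic dinucleotide cGAMP (a STING ligand) takes the place of SeV, and PAM+SeV, in which PAM takes the place of CpGB. Against cGAMP+CpGB 125 genes differed (2.65%), 24 higher (0.508%) and 101 lower (2.14%). Against PAM+SeV 30 differed (0.636%), 5 higher (0.106%) and 25 lower (0.530%). Tnf was at 7826, 8019.8 and 8037 CPM in SeV+CpGB, 19798, 21942 and 21578 in cGAMP+CpGB and 13408, 14866 and 14818 in PAM+SeV. The groups did not overlap, and SeV+CpGB was -1.41 (SE 0.15, adjusted p = 3.87e-14) and -0.85 (SE 0.15, adjusted p = 1.82e-05) against them. Il6 was at 4134, 4086 and 4636 CPM in cGAMP+CpGB and 4137, 4848 and 4899 in PAM+SeV, so the level above both singles in SeV+CpGB was below that of either pair, with log2 differences of -0.99 (SE 0.13, adjusted p = 1.33e-09) and -1.10 (SE 0.13, adjusted p = 3.48e-11). In cGAMP+CpGB and in PAM+SeV, Il6 met the full rule for lying above both singles, with the fold threshold. Tnf met it in cGAMP+CpGB and not in PAM+SeV. Ifnb1 was at 458, 333 and 436 CPM in cGAMP+CpGB and 310.3, 250.4 and 301 in PAM+SeV, -1.15 (SE 0.26, adjusted p = 0.00101) and -0.64 (SE 0.28, adjusted p = 0.364), of which the second did not pass.

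The next genes were chosen after their values were seen. Tnfsf15, a cytokine of the TNF family, was at 377, 489 and 297 CPM in SeV+CpGB, 2343, 2549.9 and 2509 in cGAMP+CpGB and 818, 1040.3 and 1051 in PAM+SeV, -2.68 (SE 0.22, adjusted p = 5.91e-22) and -1.34 (SE 0.24, adjusted p = 2.71e-05). Oasl1, an interferon-induced regulator of Irf7 translation, was at 778, 783 and 773 CPM in SeV+CpGB, 3761, 3825 and 3519 in cGAMP+CpGB and 912, 1194 and 862 in PAM+SeV, -2.25 (SE 0.20, adjusted p = 1.15e-20) against cGAMP+CpGB and -0.36 (SE 0.22, adjusted p = 0.611) against PAM+SeV. Il1a, an alarmin cytokine, was lower than PAM+SeV with a log2 difference of -1.25 (SE 0.14, adjusted p = 1.90e-13), at 1991, 2078 and 1818 against 4438, 4559 and 4956 CPM. In all 3 genes SeV+CpGB had the lowest mean of the 3 pairs. In the other direction, Saa3 was higher than in cGAMP+CpGB, at 5916, 5090.5 and 6199 against 3243, 2530.3 and 2832 CPM (1.00, SE 0.17, adjusted p = 1.99e-06), as was Hmox1, the heme-degrading enzyme, at 442, 331 and 463 against 229, 183 and 131 (1.22, SE 0.27, adjusted p = 0.000751). Socs1, a feedback inhibitor of interferon signalling, was at 311, 294 and 258 against 84.9, 189.6 and 108 CPM (1.14, SE 0.26, adjusted p = 0.000888). Cd300e led the 5 genes higher than in PAM+SeV, at 65.6, 60.2 and 39.7 against 0, 0 and 7.01 CPM (adjusted p = 0.00699).

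**Figure D5:**
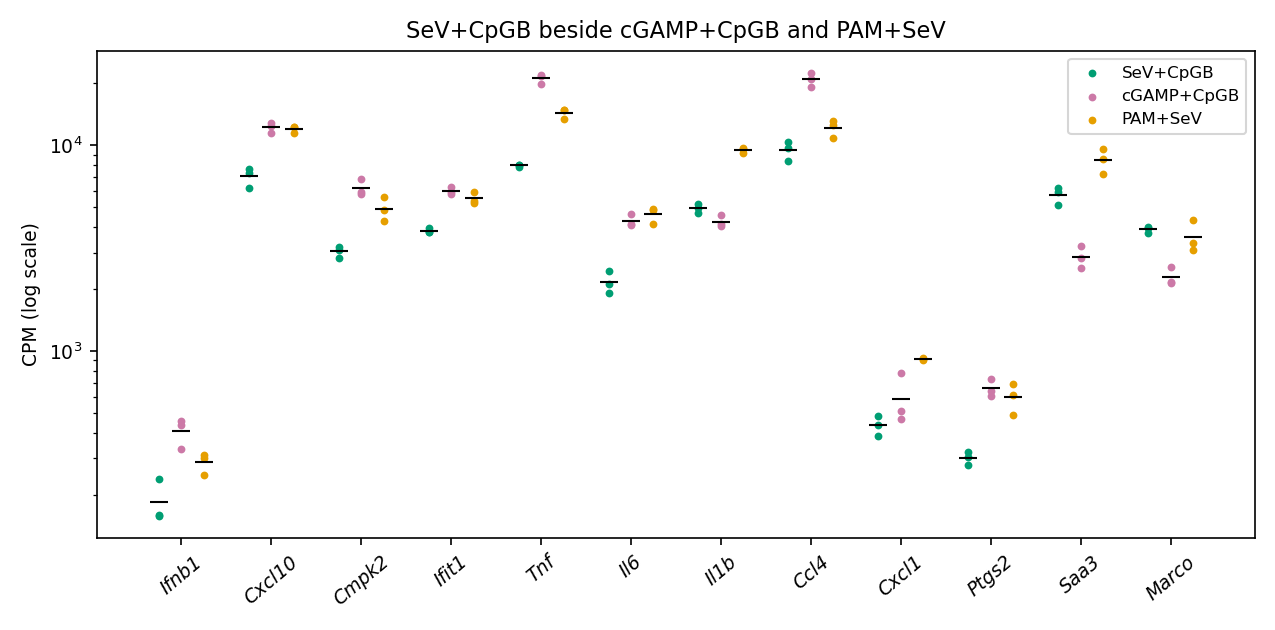
Level of 12 genes in each library of SeV+CpGB, cGAMP+CpGB and PAM+SeV, in CPM on a log axis, points for libraries and lines for means of 3. Tnf, Il6, Ccl4 and Cxcl10 are lowest in SeV+CpGB, and Saa3 and Marco are lowest in cGAMP+CpGB.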

How the data were processed

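Per the labels' protocols, the authors reverse transcribed RNA with template switching, pooled the cDNA of many samples, tagmented it and sequenced it on a NextSeq. The authors deposited whole-number counts per gene symbol, called UMI counts in the name of the table, without normalization, for 23481 genes. The submitters' processing notes name BWA 0.7.15 and mm10; the annotation and the rule for collapsing UMIs are not given in the sources used here. The file holds no mitochondrial genes, so that measure of RNA quality was not used.

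The analysis ran in R 4.3.3. The filter filterByExpr of edgeR 4.0.16, applied with the groups, left 4720 genes. TMM factors and 1 quasi-likelihood model over all 64 groups (128 residual degrees of freedom, common biological coefficient of variation 10.3%) were used, since 3 libraries give a weak estimate of the spread. Benjamini-Hochberg adjustment ran over all tested genes. Alternatives were RLE factors, library size alone, DESeq2 1.42.0, no filter, the compared groups alone, thinning, a replicate block, no fold threshold and leaving out each library. Scripts were tested on simulated data.

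Named genes were, by rule, genes above or below both singles (with at least 20 CPM), the 6 largest rises and falls in each comparison among called genes with at least 50 CPM in either group whose libraries did not overlap, the 6 nearer each ligand, the 4 largest differences of each sign from the sum of both responses, and genes given by name; others come from the lists or are said to have been chosen after their values were seen. The rule, the members and the 17 gene lists were chosen with earlier results of these data known. For the largest rises and falls, libraries that do not overlap were a condition of being named, so their separation adds no support.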

Additional observations from a re-analysis of the deposited data

Results flagged for a closer look

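The response to CpGB differed with and without SeV in 319 genes by edgeR's test of that difference (Benjamini-Hochberg). The 8 genes given here are the 4 largest of each sign with at least 50 CPM in any group. The difference, on the log2 scale, was -6.92 for Phf11a (adjusted p = 0.000243), -6.87 for Upp1 (0.000219), -6.75 for Ccl12 (0.00127) and -6.13 for Ddx60 (0.00441). These 4 had 0 UMIs in Ctrl, so the fitted sizes depend on the prior count and are no bound. It was 6.37 for C77080 (0.0167), which had 0 UMIs with CpGB alone, 3.88 for Daglb (0.000593), 3.84 for Prpf39 (0.000955) and 3.29 for Nop56 (0.0427). The 3 Ctrl libraries were the shallowest of the 4 groups.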

How the results depend on the processing

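Of 38 values of named genes called against a single ligand, by adjusted p and fold, 31 kept their call under every alternative and 0 changed sign; of 68 that were not called, 65 stayed so. By adjusted p alone, 38 of 46 called values kept their call, and 52 of 60 others stayed uncalled. Without a fold threshold, 59 genes were higher and 7 lower than CpGB, 186 lower than SeV, 2 above and 1 below both singles, 205 differed from cGAMP+CpGB and 81 from PAM+SeV. DESeq2 gave 53 genes lower than SeV, 0 lower than CpGB, 55 nearer CpGB, 188 for the difference from the sum of both responses, 60 against cGAMP+CpGB and 14 against PAM+SeV. Fits of the compared groups alone gave 8 genes lower than CpGB, 1 above both and 1 below both. Genes lower than CpGB numbered 4 with library size alone, 4 without the filter and 0 after thinning, and thinning gave 211 for the difference from the sum. The cause was not tested for any of these.

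Leaving out 1 library at a time gave 137 to 187 genes higher and 81 to 105 lower than SeV, 19 to 34 higher and 0 to 5 lower than CpGB, 5 to 11 nearer SeV, 65 to 95 nearer CpGB, 249 to 350 for the difference from the sum, 99 to 112 against cGAMP+CpGB and 20 to 32 against PAM+SeV, and 0 above or below both. The lows for genes higher than CpGB and nearer SeV came without CpGB replicate 1, and 0 genes were lower than CpGB without CpGB replicate 2 and without SeV+CpGB replicate 1. With the replicate number as a block, 181 genes were higher and 116 lower than SeV, 31 higher and 2 lower than CpGB, and 331 were called for the difference from the sum. The samples share only a number, and the deviations of same-numbered libraries from their group means correlated at -0.01 to 0.03, with 0 of 9 over 0.1. Depth limits genes under about 50 CPM, which held a few UMIs a library, most of all in Ctrl.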

Other observations

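Lgals3, Gpx1 and Adam8 were higher with SeV alone than with CpGB alone and lower in the pair than with SeV, and were chosen after their values were seen. Lgals3, which encodes galectin-3, was at 3975, 4191 and 3869 CPM in Ctrl, 3393, 2913 and 3480.1 with SeV, 1368, 1567 and 1568 with CpGB and 1352, 1920.2 and 1877 in the pair. Every pair library was below every SeV library, a difference of -0.92 (SE 0.12, adjusted p = 4.40e-11) on the log2 scale (edgeR, Benjamini-Hochberg adjustment). Gpx1, a glutathione peroxidase that removes hydrogen peroxide, was at 1704, 1871 and 2007 CPM in Ctrl, 1233, 1219 and 1149 with SeV, 427, 531 and 479.6 with CpGB and 442, 610.0 and 575 in the pair, -1.13 (SE 0.14, adjusted p = 1.28e-11) against SeV. Adam8, a membrane metalloprotease, was at 363, 391 and 352 CPM with SeV and 98.3, 136 and 152 in the pair, -1.49 (SE 0.27, adjusted p = 3.75e-06). These 3 are among the 8 genes higher with SeV alone that were called nearer CpGB, a number that ran from 1 to 14 over the alternatives, and each was lower with CpGB alone than in Ctrl.

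Pcna, a replication clamp, was at 388, 387 and 547 CPM in Ctrl, 545, 445 and 352 with SeV, 116, 133 and 194 with CpGB and 164, 173 and 132 in SeV+CpGB, but at 484, 556 and 489.9 CPM in cGAMP+CpGB. SeV+CpGB was -1.47 (SE 0.24, adjusted p = 2.64e-07) against SeV and -1.71 (SE 0.23, adjusted p = 1.89e-09) against cGAMP+CpGB. Of the 14 cell cycle genes listed, 3 passed the filter on low counts. The macrophage marker Emr1, the older symbol of Adgre1, was at 248, 161 and 211 CPM with SeV, 883, 858 and 899 with CpGB and 664, 843 and 793 in the pair, 1.90 (SE 0.19, adjusted p = 5.56e-17) over SeV, and the monocyte and macrophage marker Cd14 at 229, 176 and 305 CPM with SeV, 1591, 985 and 1526 with CpGB and 983, 1114 and 965 in the pair, 2.05 (SE 0.19, adjusted p = 2.45e-20). Both moved with the inflammatory genes, and their part in those results was not tested. The summed level of all 7 macrophage markers overlapped between the pair and SeV.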
